A study of Homo sapiens with 3 samples.

Results

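Mitochondria make only a few of their own proteins, so nearly all others are imported. The genes described here encode the machinery of that import and of the folding, processing and breakdown of the imported proteins. They are 38 genes, taken as every probe set whose platform gene symbols include one of them: 100 of the 54675 probe sets of the array. Of these probe sets, 88 list 1 gene and 12 list several. Through the 88, 36 of the 38 genes have a probe set of their own, among 19775 genes with one on the whole array. TOMM6 and TOMM7 are present only through probe sets that list another gene as well.

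The study searched for genes that activate HSF1, the transcription factor of the heat shock response, and profiled unstressed HEK-293T cells to learn which genes these cells express. HEK-293T is a transformed human embryonic kidney line, which per the labels carries an inserted temperature sensitive gene of the SV40 T-antigen. Total RNA of 3 untreated cultures, all grown in DMEM with fetal bovine serum, was hybridised to 1 Affymetrix array each. The low-seeded 48 h culture (375K cells, RNA integrity number 9.6) and the high-seeded 48 h culture (750K cells, 10.0) were harvested 48 h after seeding, and the 24 h culture (1000K cells, 9.5) at 24 h. No culture was stressed. Harvest time and seeding number cannot be told apart for the 24 h culture, which is a single array, and the labels do not say whether the arrays were run together.

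A precursor protein is bound by receptors of the TOM complex, the entry gate in the outer membrane, and passes through its channel. Small TIM chaperones then guide hydrophobic precursors across the space between the membranes, while the TIM23 complex and its ATP-driven motor pull proteins with a presequence into the matrix and the TIM22 complex inserts carrier proteins into the inner membrane. In the matrix the presequence is cut off, chaperones fold the protein, and proteases of the matrix and inner membrane remove proteins that fail to fold.

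Signals are MAS5 intensities on a linear scale. Background was set on each array as the 95th percentile of 308 probe sets for smell and bitter taste receptors and for genes restricted to other tissues, which gave a threshold of 91.9 in the low-seeded 48 h culture, 109.1 in the high-seeded 48 h culture and 83.8 in the 24 h culture. A probe set had to pass on all 3 arrays, and a gene counted as above background if any probe set listed for it alone did so. On the whole array 39.2% of probe sets and 52.3% of genes were above background. All 5 genes chosen as typical of HEK-293T (KRT8, KRT18, VIM, NEFL and NEFM) were, whereas of the markers of other cell types that were measured 0 of 3 leukocyte and 0 of 3 endothelial genes, 1 of 4 fibroblast genes (COL1A1) and 1 of 6 genes of mature tubule and podocyte (LRP2) were. Of the measured kidney progenitor genes, EYA1 was above background and PAX2 was not. The arrays resembled each other, with correlations of the log2 signals above background between 0.983 and 0.986. In RNA from whole cultures, fewer cells that express a gene and less RNA per cell cannot be told apart.

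Nearly the whole machinery gave signals above background in the unstressed cells. Of the 36 member genes with a probe set of their own, 34 (94.4%) were above background, against 52.3% of all genes. Of the 100 member probe sets, 70 (70.0%) were above background, against 39.2% of all probe sets. High shares were also seen in the other nuclear genes of the organelle, since 75 of 75 mitochondrial ribosomal proteins and 68 of 69 nuclear-encoded respiratory chain subunits were above background. The exceptions among the members were TIMM23 and SPG7, and both have other probe sets, shared with a further gene, that were well above background. With such shared probe sets counted for the member, an alternative chosen after the data were seen, 38 of 38 genes were above background. This looser rule was applied to the members alone, so the 52.3% of all genes is not its background.

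The brightest probe set of each of the 34 genes exceeded the threshold of every array by a factor of at least 5.61 (TOMM40L). The highest factor on any array was 434, for HSPD1. On all 3 arrays, 32 genes exceeded it by more than 10-fold, 16 by more than 50-fold and 6 by more than 100-fold. Those 6 were TOMM20, TOMM5, TIMM8B, TIMM17A, HSPD1 and HSPE1. The factors were computed for the members alone, so no share of all genes stands beside these counts. Probe sets differ in how strongly they bind, so these factors say how clear the call is and do not order the genes by transcript number.

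**Figure D1:**
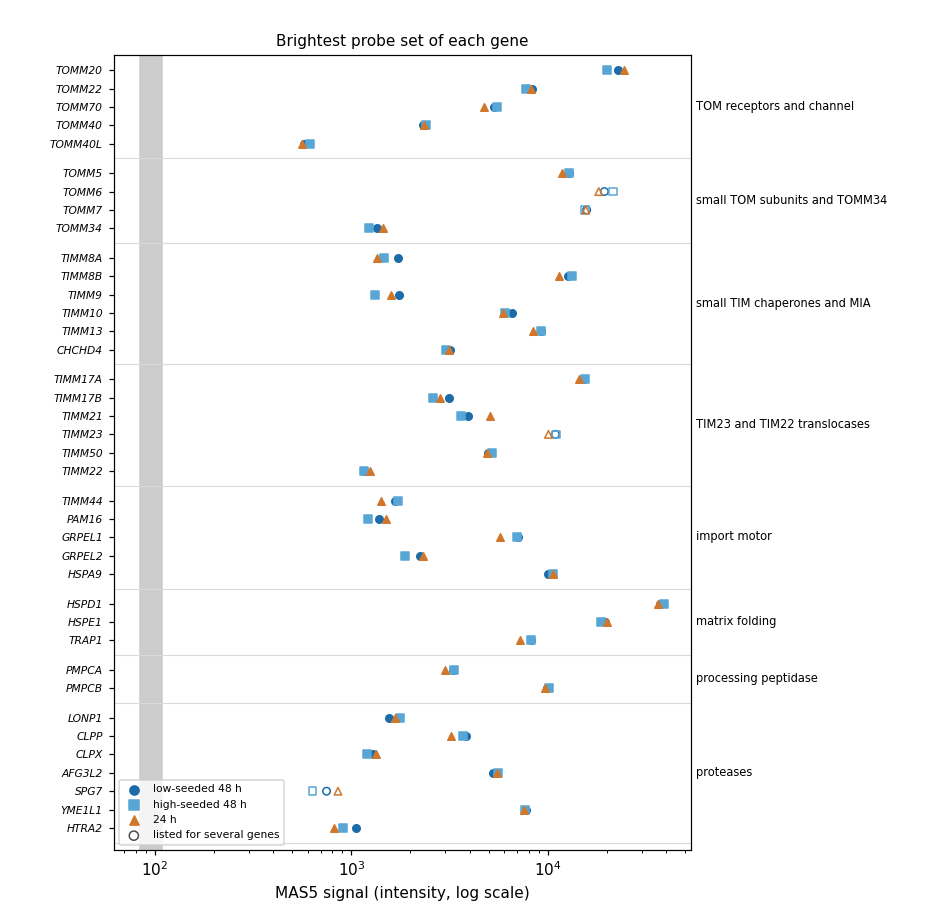
Signal of the brightest probe set of each member gene on the 3 arrays (horizontal log axis, MAS5 intensity), by function; the grey band spans the 3 background thresholds. Open symbols mark the probe sets of TOMM6, TOMM7, TIMM23 and SPG7 that list a further gene, and every point lies above the band.

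The promoters of the members are shown here because NRF1 and the ETS factor GABP are known regulators of nuclear genes for mitochondrial proteins. RefSeq windows (GRCh38.p14) of 300 bases, 250 before and 50 after the gene start, were at hand for 33 of the 38 members. TOMM5, TIMM8B, YME1L1, GRPEL1 and CLPP had no entry. The letters GCGCANGCG, a core of the NRF1 site, were found on either strand in 13 of the 33 windows (39.4%). They were found in 8.05% of all 27305 promoters, in 16.4% of those of genes above background on these arrays and in 4.61% of those of genes not above it. The share was 32.2% for the respiratory chain subunits and 19.4% for the mitochondrial ribosomal proteins. Each of the 13 matches is printed with 10 bases on both sides, read in the direction of the searched letters, with the match in capitals, and where a promoter has several the one farthest before the start is shown:
TOMM20: ttcgcccactGCGCAGGCGcaggagccgc
HSPD1: atcacccagcGCGCAGGCGcgctcgcccc
HSPE1: atcacccagcGCGCAGGCGcgctcgcccc
CHCHD4: cagtgtttctGCGCATGCGcgcggcgaga
GRPEL2: ctgagaggcaGCGCACGCGcacttgctgc
TOMM7: gcagtagtagGCGCATGCGtggttgcgat
TIMM9: gtttcttggcGCGCATGCGtgttgtgtct
CLPX: cgggcctaggGCGCAGGCGcgcgcaagct
PAM16: gcgccgtatcGCGCACGCGctctctgcgg
SPG7: tgtggggaccGCGCAGGCGccacgtcaga
TIMM13: ttacgagtcgGCGCACGCGgcctcggtcc
TOMM40: gagccaatagGCGCAGGCGctgcgagcca
TOMM34: caccttccggGCGCAAGCGccggcggcga

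The capitals of HSPD1 and HSPE1 are the same bases, since these genes start head to head and their windows overlap by 204 bases. The matches begin between 222 bases before the gene start (TOMM40) and 16 bases after it (TIMM13). Those of GRPEL2 and TIMM13 lie after the start. In CHCHD4 the letters were matched at 3 places, 2 of which overlap on opposite strands.

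The letters CCGGAAG, a core of the ETS site, were found on either strand in 11 of the 33 windows (33.3%), against 10.7% of all promoters, 20.9% of those of genes above background and 6.15% of those of genes not above it. The mitochondrial ribosomal proteins had them in 41.8% and the respiratory chain subunits in 30.5%. In all, 20 of the 33 members had NRF1 or ETS letters, and 4 had both (TOMM20, TOMM34, TIMM13 and GRPEL2). In TOMM34 the match of the NRF1 letters is directly followed by that of the ETS letters. The median GC content of the member windows was 65.7%, against 58.3% for all promoters, and the part of base composition in these shares was not tested. A match of letters is a description of the sequence and no evidence that a factor binds there.

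Of the members, 3 stretches are printed because they show these arrangements: the bases between the starts of HSPD1 and HSPE1, which lie before both genes of the chaperonin, the promoter of TOMM20 with both kinds of match, and that of GRPEL2 with 3 ETS matches. Capitals mark the NRF1 and ETS letters on either strand, and the sequences run 5′ to 3′ along the strand of HSPE1, TOMM20 and GRPEL2. The first is chr2:197500275-197500378 (+), the second chr1:235128838-235129087 (-) and the third chr5:149345249-149345498 (+), all GRCh38.p14.
HSPD1 to HSPE1: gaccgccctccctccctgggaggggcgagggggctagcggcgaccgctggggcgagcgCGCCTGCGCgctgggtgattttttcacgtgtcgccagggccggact
TOMM20: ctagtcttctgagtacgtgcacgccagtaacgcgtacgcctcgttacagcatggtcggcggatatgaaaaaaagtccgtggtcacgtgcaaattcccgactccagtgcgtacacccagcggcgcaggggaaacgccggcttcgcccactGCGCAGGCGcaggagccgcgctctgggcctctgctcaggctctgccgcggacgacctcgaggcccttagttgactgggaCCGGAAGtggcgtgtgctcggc
GRPEL2: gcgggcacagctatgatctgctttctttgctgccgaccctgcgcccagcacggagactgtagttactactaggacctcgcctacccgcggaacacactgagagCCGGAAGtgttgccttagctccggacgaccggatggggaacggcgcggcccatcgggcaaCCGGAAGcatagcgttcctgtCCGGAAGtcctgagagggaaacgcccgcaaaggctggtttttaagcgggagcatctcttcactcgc

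In the stretch between HSPD1 and HSPE1 the NRF1 match begins 46 bases before the start of HSPE1 and, on the other strand, 67 bases before that of HSPD1. TOMM20 has its NRF1 match 101 bases and its ETS match 22 bases before the start. The ETS matches of GRPEL2 begin 147, 87 and 66 bases before the start.

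Letters of 2 stress pathways were searched in the same windows. GAANNTTC, a core of the heat shock element that HSF1 binds, is its own reverse complement. It was found in 0 of the 33 member windows, against 6.87% of all promoters and 4.41% of those of genes above background. This says only that these letters are not within these 300 bases. Other arrangements of the heat shock element were not searched, so the member windows may still hold such elements. TGATGNAA is a core of the element bound by C/EBP and ATF factors in the amino acid and mitochondrial stress responses. It was found on either strand in 2 of the 33 (6.06%), PMPCB and TIMM22. The share was 3.67% of all promoters and 1.58% of those of genes above background, and 2 windows are too few for a reading of these shares.

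**Figure D2:**
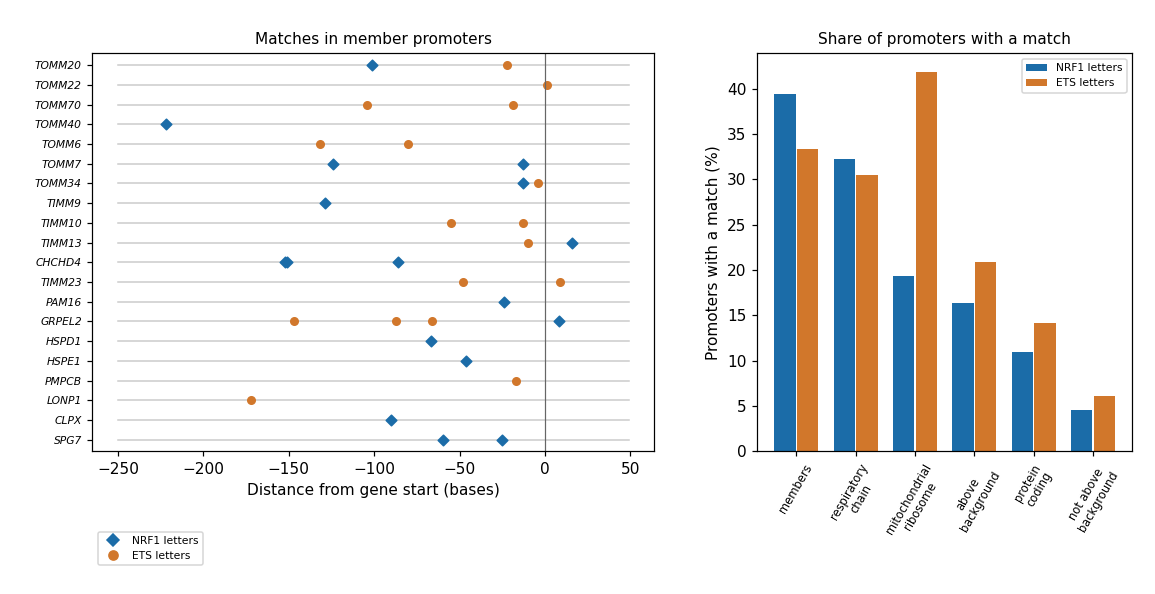
Left, distance in bases from the gene start to the first base of each NRF1 (GCGCANGCG) and ETS (CCGGAAG) match in the 20 member promoters that hold one. Right, percentage of promoters with a match in the 33 members, in 2 other lists of nuclear mitochondrial genes, in genes above background, in protein-coding genes and in genes not above background; the members have 39.4% and 33.3%.

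In the accounts that follow, the 48 h values are given for the low-seeded and then the high-seeded culture, and differences are 48 h minus 24 h on the log2 scale with their standard error from limma (n = 2 arrays at 48 h and 1 at 24 h). Unless another is named, the probe set is the brightest listed for the gene alone.

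The receptors and channel of the TOM complex were all above background, with 9 of 9 probe sets. TOMM20, the receptor for presequences, gave signals of 22703 and 19999 at 48 h, against 24295 at 24 h, and TOMM22, the central receptor that holds the complex together, gave 8319.6 and 7735 at 48 h, against 8242 at 24 h. TOMM70, which receives carrier precursors from cytosolic chaperones, gave 5336 and 5507 at 48 h, against 4708 at 24 h. TOMM40, the barrel-shaped channel, gave 2303.5 and 2396 at 48 h, against 2346 at 24 h, so that its 3 arrays lay within a log2 SD of 0.03. Its paralog TOMM40L gave 574 and 612.5 at 48 h, against 561.5 at 24 h. These were the lowest multiples of the threshold among the brightest probe sets of the 34 member genes above background. The 2 probe sets of TOMM20 differed by -0.19 ± 0.10 and -0.16 ± 0.10 and those of TOMM70 by 0.20 ± 0.10 and -0.03 ± 0.10, and no probe set of the group was called.

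The small TOM subunits stabilise the channel complex. TOMM5 gave 12812 and 12885 at 48 h, against 11799 at 24 h. The brighter of 2 probe sets listed for both TOMM6 and PRICKLE4 gave 19419.5 and 21511 at 48 h, against 18167 at 24 h, and the probe set listed for both TOMM7 and C4orf46 gave 15768 and 15466 at 48 h, against 15618 at 24 h. Those signals cannot be assigned to one gene. TOMM34, a cytosolic cochaperone that binds precursors and heat shock proteins before import, gave 1354 and 1229.6 at 48 h, against 1449.7 at 24 h.

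Among the small TIM chaperones of the intermembrane space, all 6 genes were above background, by 8 of 10 probe sets. TIMM9 and TIMM10 form the ring that carries hydrophobic precursors. TIMM9 gave 1752 and 1319.8 at 48 h, against 1597 at 24 h, and TIMM10 gave 6575 and 6040.1 at 48 h, against 5893 at 24 h. TIMM8A and TIMM13 form an alternative ring, and loss of TIMM8A causes deafness-dystonia syndrome. TIMM8A gave 1725 and 1464 at 48 h, against 1350.5 at 24 h, and its other probe set, which passed the threshold only at 24 h, gave 4.97 and 86.8 at 48 h, against 106 at 24 h. TIMM13 gave 9185 and 9216 at 48 h, against 8452 at 24 h, with a further probe set not above background at 13.4 and 43.5 at 48 h, against 10.9 at 24 h. The TIMM8A paralog TIMM8B gave 12685 and 13306 at 48 h, against 11401 at 24 h. CHCHD4, the oxidoreductase that traps such proteins by disulfide bonds, gave 3192 and 3046.5 at 48 h, against 3142 at 24 h, with a log2 SD of 0.03 over the arrays. Probe sets with both 48 h signals above and both below the 24 h signal numbered 3 and 3 of 9 for the TOM receptors and channel. For the small TOM group they numbered 3 and 1 of 6, for TIM23 and TIM22 8 and 3 of 14 and for the import motor 5 and 5 of 10. Matrix folding had 3 and 2 of 6, the processing peptidase 2 and 0 of 2 and the proteases 8 and 5 of 17. In the small TIM group 6 of 8 tested probe sets had both above, against 35.2% of all tested, and 0 had both below, against 35% of all. The 6 belong to TIMM8A, TIMM13, TIMM8B and TIMM10, the last 2 with 2 probe sets each. Scaled to equal medians, 2 of the 8 had both above, against 24.3% of all, and 0 had both below, against 38.1% of all. The median difference of the 8 was 0.11, or 0.06 after that scaling, and 0 were called by limma under any setting.

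The TIM23 translocase was represented by its isoform pair, its receptor and its linker. TIMM17A, an isoform of the channel partner, gave 15353 and 15403 at 48 h, against 14382 at 24 h, and TIMM17B, the other isoform, gave 3156 and 2609 at 48 h, against 2812 at 24 h. TIMM17A had 3 of 4 probe sets above background and 1 at 21.3 and 25.3 at 48 h, against 22.6 at 24 h. TIMM17B had 1 of 2 above, the other giving 9.79 and 20.6 at 48 h, against 6.81 at 24 h. TIMM50, the receptor that meets precursors at the inner membrane, gave 4980.0 and 5222 at 48 h, against 4885.5 at 24 h. TIMM22, the channel for carrier proteins, gave 1161 and 1164 at 48 h, against 1240.0 at 24 h.

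TIMM23, the channel protein itself, was not above background by the only probe set listed for it alone, which gave 4.61 and 51.9 at 48 h, against 17.97 at 24 h. By contrast, 3 probe sets listed for both TIMM23 and TIMM23B, a near-identical copy, were all bright. The brightest of them gave 10938 and 11033 at 48 h, against 10075 at 24 h. Transcripts of these 2 copies cannot be told apart by such probe sets. TIMM21, which links the translocase to the TOM complex and to respiratory chain assembly, gave 3920.2 and 3603 at 48 h, against 5061 at 24 h, so that the 24 h signal was the highest. Its second probe set gave 1526 and 1473 at 48 h, against 1517 at 24 h, where the groups overlapped.

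The import motor was above background in all 5 of its genes, by 10 of 11 probe sets. HSPA9 (mortalin), the HSP70 of the matrix that pulls the precursor in, gave 10047 and 10613 at 48 h, against 10656 at 24 h. A further 2 of its 4 probe sets were also above background, and the fourth gave 13.5 and 10.99 at 48 h, against 25.7 at 24 h. TIMM44, which tethers HSPA9 to the channel, gave 1665 and 1733 at 48 h, against 1409 at 24 h, and PAM16, a regulator of the ATP cycle of HSPA9, gave 1386 and 1220.2 at 48 h, against 1498 at 24 h. GRPEL1, the main nucleotide exchange factor of HSPA9, gave 7028 and 7006 at 48 h, against 5688 at 24 h, and its paralog GRPEL2 gave 2224 and 1880.0 at 48 h, against 2308 at 24 h. In the signals as deposited the paralogs lay on opposite sides of the 24 h culture: both 48 h signals of GRPEL1 were above it and both of GRPEL2 below it, for 2 probe sets each. Of all tested probe sets, 35.2% had both 48 h signals above and 35% both below. Of the 10 tested probe sets of the motor, 5 had both above as deposited and 2 when scaled to equal medians, while 5 had both below under either.

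The folding machinery of the matrix was above background in all 3 genes. HSPD1, the mitochondrial chaperonin, gave 37088 and 39196 at 48 h, against 36348 at 24 h, and its lid HSPE1 gave 19646 and 18657 at 48 h, against 20071.5 at 24 h. The arrays differed little for either, with log2 SDs of 0.06 and 0.05. HSPD1 has 5 probe sets, of which 4 were above background. Its second brightest gave 24726 and 29804 at 48 h, against 27007 at 24 h, the next 2 had mean signals of 398.3 and 195.0, and the last gave 21.4 and 91.8 at 48 h, against 72.6 at 24 h. TRAP1, the mitochondrial member of the HSP90 family, gave 8165.5 and 8192 at 48 h, against 7184 at 24 h, with its other probe set not above background at 11.2 and 12.8 at 48 h, against 16.02 at 24 h.

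The processing peptidase that cuts off presequences was above background in both subunits. PMPCA, the alpha subunit that binds the substrate, gave 3308 and 3339 at 48 h, against 2981 at 24 h. PMPCB, the beta subunit that holds the catalytic site, gave 9874 and 10098 at 48 h, against 9672 at 24 h. The second PMPCB probe set gave 79.9 and 187 at 48 h, against 32.8 at 24 h, above the threshold only in the high-seeded 48 h culture.

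Among the proteases, 6 of 7 genes were above background. LONP1, which degrades damaged proteins of the matrix, gave 1556 and 1765 at 48 h, against 1665.5 at 24 h. CLPP, the chambered peptidase, gave 3838 and 3714 at 48 h, against 3228 at 24 h, and CLPX, the unfoldase that feeds it, gave 1286 and 1197 at 48 h, against 1343 at 24 h. HTRA2, a serine protease of the intermembrane space, gave 1051 and 908 at 48 h, against 819 at 24 h, while its second probe set gave 915 and 924 at 48 h, against 913.5 at 24 h, the smallest spread of any member probe set above background (log2 SD 0.01).

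AFG3L2 and SPG7 form the protease of the inner membrane that faces the matrix, and mutations in each cause ataxia or spastic paraplegia. AFG3L2 gave 5267 and 5609.9 at 48 h, against 5503 at 24 h. A second AFG3L2 probe set gave 670.3 and 700.5 at 48 h, against 745 at 24 h. The third was not above background, with 16.04 and 26.4 at 48 h, against 6.17 at 24 h. SPG7 was not above background by the only probe set listed for it alone, which gave 63.4 and 13.5 at 48 h, against 12.7 at 24 h. Of 6 probe sets listed for both SPG7 and LOC101930112, 4 were above background, and the brightest gave 748 and 636 at 48 h, against 855 at 24 h. LOC101930112 is annotated as a noncoding RNA, and the probe sets cannot assign the signal to either gene.

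YME1L1, the inner membrane protease that faces the intermembrane space, has 20 probe sets that the platform annotation lists for it alone. Whether each of them targets YME1L1 transcripts was not tested and is in doubt for the dim ones. Of these, 3 were far above background. The brightest gave 7759 and 7616.5 at 48 h, against 7575 at 24 h, the second 6772 and 6771 at 48 h, against 6670.4 at 24 h, and the third 4729 and 4564 at 48 h, against 4379 at 24 h. The other 17 were not above background. Of the 17, 1 passed the threshold on both 48 h arrays, with 105 and 119.6 at 48 h, against 62.5 at 24 h, and the highest single signal of the rest was 77.4. No probe set of YME1L1 lay between a mean signal of 95.8 and one of 4557. Of the 30 member probe sets not above background, 17 were listed for YME1L1 and 13 for other genes, so the count of 70 in 100 rests in part on that annotation. Without the probe sets of YME1L1, an alternative chosen after the data were seen, 67 of 80 (83.8%) were above background.

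In all, 10 genes had probe sets of their own that disagreed on the call (TIMM8A, TIMM13, TIMM17A, TIMM17B, HSPA9, HSPD1, TRAP1, PMPCB, AFG3L2 and, by the platform annotation, YME1L1), and 24 genes had every probe set of their own above background. Only 1 own probe set exists for 12 of the 36 genes, TIMM23 and SPG7 among them, so no disagreement was possible there. Of the 30 probe sets not above background, 25 passed the threshold on no array and 5 on 1 or 2.

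**Figure D3:**
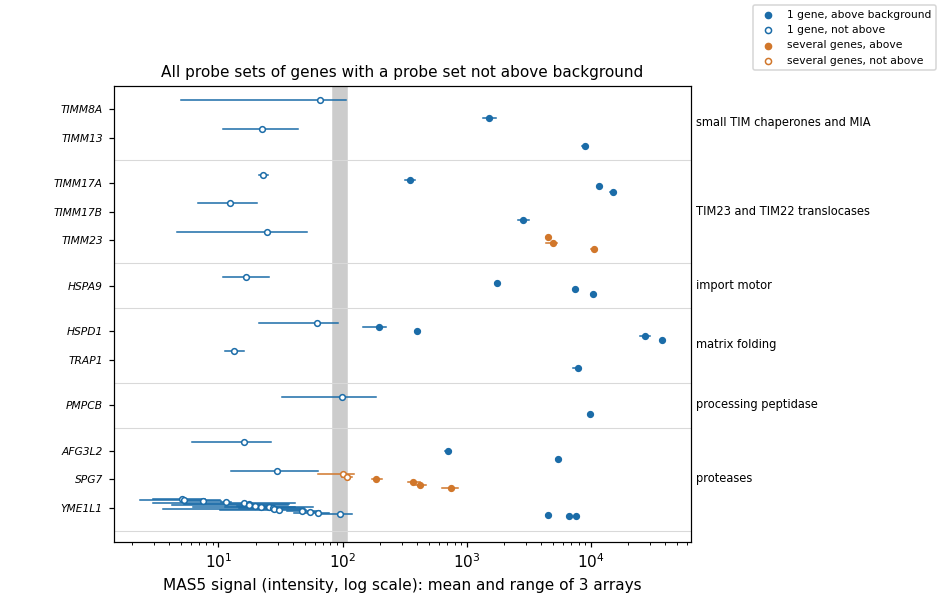
All probe sets of the 12 member genes with at least 1 not above background (horizontal log axis, MAS5 intensity); points are means and lines the range of the 3 arrays, filled where above background, blue where listed for 1 gene and orange where listed for several. The grey band spans the 3 thresholds, and the 17 open points of YME1L1 lie at or below it while 3 filled points lie far above it.

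The members varied little between the cultures. The median log2 SD over the 3 arrays was 0.08 for the 70 member probe sets above background, against 0.15 for all probe sets above background. The members were also brighter, with a median mean signal of 3274, against 638.7 for all. Within a band of mean signal between 1000 and 10000, the median log2 SD was 0.080 for 39 member probe sets and 0.10 for 7293 probe sets in all. Of the 70, 40 had a log2 SD under 0.1 and 4 over 0.2, the widest being the dimmest HSPD1 probe set above background at 0.34. For the members the cultures of the same harvest time were the closest pair, with a median absolute log2 difference of 0.0829 between the low-seeded and high-seeded 48 h cultures. It was 0.0966 between the low-seeded 48 h and the 24 h culture and 0.125 between the high-seeded 48 h and the 24 h culture. All probe sets above background gave the same order of pairs, at 0.157, 0.177 and 0.188.

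The comparison of the 48 h cultures with the 24 h culture called no member. Of 23593 probe sets tested by limma, 72 were those of members, and each of the 38 genes had at least 1. At an adjusted p threshold of 0.05 (Benjamini-Hochberg over all tested), 0 member probe sets were called higher at 48 h, against 0.0466% of all tested, and 0 were called lower, against 0.186% of all. Without adjustment 4 member probe sets had p under 0.05, where 9.05% of all tested did. Under the other settings of the fit 0 were called as well, with between 0 and 7 at an unadjusted p under 0.05. The fit has 1 residual degree of freedom and takes the lone 24 h array to vary like the 48 h pair, so a p above the threshold does not show equal levels. The smallest p that an exact permutation test of 2 arrays against 1 allows is 0.333.

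The lowest difference and the lowest adjusted p belonged to the brighter TIMM21 probe set, at -0.43 ± 0.10 (limma, adjusted p = 0.12). The other TIMM21 probe set differed by -0.02 ± 0.13. The brighter GRPEL1 probe set had the largest difference above 0 of any member probe set above background, 0.30 ± 0.10 (limma, adjusted p = 0.281), and the second GRPEL1 probe set 0.14 ± 0.11. One of the probe sets listed for both TIMM23 and TIMM23B differed by 0.27 ± 0.10 (limma, adjusted p = 0.398), with signals of 5333 and 5245 at 48 h, against 4392.5 at 24 h. CLPP differed by 0.23 ± 0.10 (limma, adjusted p = 0.536). These 4 were the member probe sets that passed without adjustment. Such a choice favours probe sets whose 48 h signals lie on one side of the 24 h signal, so that order, seen in each, adds no support.

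The rest of the 5 highest and 5 lowest differences included several dim probe sets. Above 0 were the dimmest probe set listed for both SPG7 and LOC101930112 at 0.76 ± 0.52, and the brighter TIMM44 probe set at 0.27 ± 0.13. The SPG7 and LOC101930112 signals lay about the threshold, with 125 and 114 at 48 h, against 63.1 at 24 h. The dimmest TOMM22 probe set followed at 0.26 ± 0.37, with signals of 201 and 235 at 48 h, against 179 at 24 h. Below 0 was the dimmest HSPD1 probe set above background at -0.31 ± 0.39, with signals of 215 and 146 at 48 h, against 224 at 24 h. PAM16 differed by -0.20 ± 0.14. Of the probe sets listed for both SPG7 and LOC101930112, the brightest differed by -0.30 ± 0.19 and the dimmest above background by -0.24 ± 0.38, with signals of 176 and 173.5 at 48 h, against 209.6 at 24 h. The dim HSPD1 probe set stood apart from its bright ones, which differed by 0.07 ± 0.10 and 0.01 ± 0.11.

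Most members differed by less than 0.25 on the log2 scale in either direction, 64 of 72 probe sets (88.9%), against 66.2% of all tested. The median difference of the members was 0.05, against -0.01 for all tested, with 43 above 0 and 29 below. Both 48 h signals were above the 24 h signal in 38 of the 72 (52.8%), against 35.2% of all tested, and both were below in 19 (26.4%), against 35% of all. These counts turn on small offsets between arrays: scaled to equal medians, the median difference of the members was -0.01, against -0.06 for all tested, and 16 had both 48 h signals above, against 24.3% of all, and 18 both below, against 38.1% of all. After quantile normalization the median was 0.03, against 0.00 for all tested, with 33 both above, against 35.8% of all, and 21 both below, against 34.0% of all.

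Ratios within an array bear on unequal change of partners. The log2 ratio of the GRPEL1 to the GRPEL2 signal was 1.66 and 1.90 at 48 h, against 1.30 at 24 h. That of CLPP to CLPX was 1.58 and 1.63 at 48 h, against 1.27 at 24 h. For HSPD1 to HSPE1 it was 0.92 and 1.07 at 48 h, against 0.86 at 24 h, and for PMPCA to PMPCB -1.58 and -1.60 at 48 h, against -1.70 at 24 h. For TIMM17A to TIMM17B it was 2.28 and 2.56 at 48 h, against 2.35 at 24 h, so the groups overlapped there. They overlapped also for TIMM8A to TIMM8B, with -2.88 and -3.18 at 48 h, against -3.08 at 24 h. TOMM40 to TOMM40L was the only one of the 7 pairs with a lower ratio in both 48 h cultures, 2.0 and 1.97 at 48 h, against 2.06 at 24 h. Each ratio uses the brightest probe set listed for each gene alone, and other probe sets can give another order of the cultures. The second brightest HSPD1 probe set gave 24726 and 29804 at 48 h, against 27007 at 24 h. Its 24 h signal lay between them, and ratios with it were not computed. The size of such a ratio depends on the probe sets and says nothing of the proportion of the proteins, and with 1 array at 24 h the differences were not tested.

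**Figure D4:**
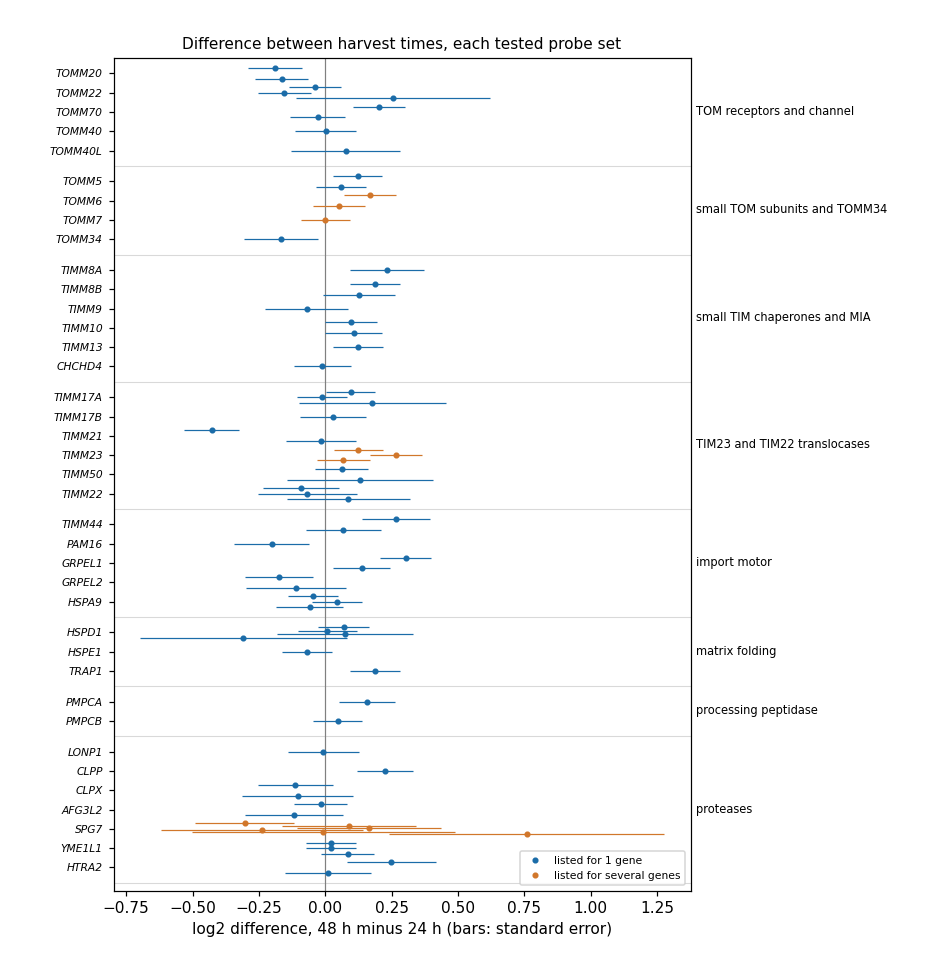
Difference in log2 signal, 48 h minus 24 h, for each of the 72 tested member probe sets by gene and function; points are limma estimates (2 arrays at 48 h and 1 at 24 h), bars their standard errors, and orange marks probe sets listed for several genes. Most points lie within 0.25 of 0, and TIMM21 has the lowest at -0.43.

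Other genes of the same pathways were compared by 3 further lists. Of 19 other genes of import and membrane assembly, 18 were above background, including SAMM50, which inserts barrel proteins into the outer membrane, OXA1L, the inner membrane insertase, and the AIFM1 partner of CHCHD4. The exception was DNAJC15, a J-protein of the import motor, whose brightest probe set gave 12.00 and 47.2 at 48 h, against 41.6 at 24 h, while the related DNAJC19 gave 3924 and 3961 at 48 h, against 3626 at 24 h. Of 26 tested probe sets 0 were called in either direction by limma at the same threshold.

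Of 18 other chaperones, proteases and peptidases of the organelle, all 18 were above background and 0 of 35 tested probe sets were called, although 1 was called lower without the filter on low signals. OMA1, a stress-activated protease that shares substrates with YME1L1, came nearest to a call, with 1665 and 1854 at 48 h, against 2631.5 at 24 h, and a difference of -0.58 ± 0.12 (limma, adjusted p = 0.0665). CLPB, a disaggregase of the intermembrane space, had the opposite sign, with 914 and 915 at 48 h, against 607 at 24 h, and a difference of 0.58 ± 0.17 (limma, adjusted p = 0.241). PHB1 and PHB2 are the prohibitins, which scaffold the AFG3L2 protease. PHB1 gave 19801 and 19617 at 48 h, against 18894 at 24 h, and PHB2 gave 23777 and 24702 at 48 h, against 21655.5 at 24 h.

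All 13 regulators of mitochondrial stress and biogenesis were above background, and 0 of 29 tested probe sets were called. HSF1 gave 343 and 249.8 at 48 h, against 262 at 24 h, and NRF1 gave 529 and 538 at 48 h, against 469.8 at 24 h. GABPA, the ETS subunit of GABP, gave 1213 and 988 at 48 h, against 1132.5 at 24 h. ATF4, which drives the integrated stress response, gave 23119 and 23930.1 at 48 h, against 22104 at 24 h. DDIT3 (CHOP), a factor induced by mitochondrial and other protein stress, gave 135 and 198 at 48 h, against 377 at 24 h, with a difference of -1.12 ± 0.37 (limma, adjusted p = 0.311). Of 3 other mitochondrial lists, only the protein genes of the mitochondrial genome had called probe sets: 4 of 10 were called lower at 48 h by limma, with a median difference of -0.37 over the 10. Without the mean-variance trend 0 of the 10 were called, and after scaling to equal medians 1 was. The 10 probe sets belong to 7 genes, so they do not count as independent. Both 48 h signals were below the 24 h signal in 10 of 10 under each setting, against between 31.3% and 38.1% of all tested. The part of this difference in the values of the members was not tested. The median difference was 0.01 for the ribosomal proteins of the organelle and 0.05 for the nuclear-encoded respiratory chain subunits, against 0.05 for the 72 member probe sets, and 0 probe sets of either list were called.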

How the data were processed

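Total RNA of 3 unstressed HEK-293T cultures was hybridised by the authors to Affymetrix HG-U133 Plus 2.0 arrays, 1 array per culture. The deposited values are MAS5 signals, an intensity on a linear scale that the authors made with GCOS 1.0 (submitters' processing notes). Each array has a mean of 500.1 once 2% of the values is trimmed off both ends. Array medians were 71.0, 80.3 and 72.8 in the low-seeded 48 h, high-seeded 48 h and 24 h cultures. The absent/present calls of the study's methods were not used here, and the threshold on reference probe sets took their place. The number of arrays limits the precision. The spread behind the standard errors and p-values comes only from the low-seeded and high-seeded 48 h cultures, treated as replicates and pooled across probe sets. These were seeded with 375K and 750K cells, so that spread can hold a difference in seeding. Nothing in the sources used here says that the cultures were separate passages, so p-values reflect nothing beyond this spread, which may also be technical.

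From these values the following was computed with Python 3.11.15, pandas 2.3.3, R 4.3.3 and limma 3.58.1. Probe sets were named through the platform annotation, with symbols updated by gene ID to GRCh38.p14, and a probe set listed for several genes (1801 of 54675) named none. Of the 308 reference probe sets (217 genes), 2 were themselves above background. Both 48 h arrays were compared with the 24 h array by limma (lmFit and eBayes with a mean-variance trend) on log2(signal + 18.4), where 18.4 is the median signal of the reference. Tested were the 23593 probe sets with a mean log2 signal above that of the mean threshold (94.3). This scale understates differences of low signals. Values were adjusted by Benjamini-Hochberg over all 23593. The fit was tested on simulated data.

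Every member was named, by its brightest own probe set where it has one, together with each member not above background, each with probe sets that disagree and the 5 highest and 5 lowest differences. The members and lists were chosen with earlier results of these data known. Alternatives were other percentiles and references, 2 arrays sufficing, no probe sets that can share sequence, the brightest probe set of each gene, other added values, no filter, quantile normalization, equal medians, no trend and each array left out.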

Additional observations from a re-analysis of the deposited data

How the results depend on the processing

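The count of 34 member genes above background was also 34 under other percentiles, references, normalization and with any array left out. It was 26, of 29 genes measured, without probe sets that can share sequence (names ending in _s_at, _x_at or _a_at), where 45.3% of all genes were above background. Because that alternative drops such probe sets from the count, it left 33 member probe sets above background, against 70. The call of each remaining probe set was unchanged. Scaled to equal medians, 16 member probe sets had both 48 h signals above the 24 h signal, against 38, and the median difference was -0.01, against 0.05 as deposited. With 1 of the 48 h arrays left out, between 24 and 29 member probe sets had the remaining 48 h signal below the 24 h signal, against 19 with both, since a single array has to pass. No member probe set was called by limma under any setting of the fit; the lowest adjusted p was between 0.0998 and 1.0. Over all tested probe sets, 7 were called higher and 7 lower after scaling to equal medians, 26 and 85 without the filter and 0 and 0 without the mean-variance trend, against 11 and 44. Of 66 alternatives tried, 63 stayed within 1.5 times the count, or within the spread, of the value reported. The spread used for the median difference was 0.078, wider than the median of 0.046, so a change of sign stayed within it. Settings of the fit that called no member also counted as within. The number 63 therefore says little about these results. No paired analysis was possible because the labels give no replicate numbers (those used here only follow the order of deposit) and the 24 h group holds 1 array. With a 48 h array left out no residual degree of freedom remained, so no calls could be made. Probe sets near the threshold, such as those of SPG7, have the widest errors.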
